A study of Mus musculus with 10 samples.

Results

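Genes for histones and for the proteins that bind, modify or move nucleosomes were followed in the prefrontal cortex of mice with collagen-induced arthritis. Members were the array probes whose single gene symbol in the platform annotation belongs to one of 14 classes: linker histones, the histone variant gene H3f3b, and the Hmg, Hdac, Sirt, Ing, Brd, Smarc, Chd, Cbx, Ezh, Dnmt, Mbd and Taf families. This gave 69 probes for 64 genes, out of 9078 listed probes. The rule reads gene symbols and no expression value, and it was set with earlier results of these data known. A ratio in all 3 replicates, which the test needed, was obtained for 35 of the 69 member probes and for 4125 of the 9078 listed probes. These 35 probes stand for 33 of the 64 genes.

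DNA in the nucleus is wound around octamers of core histones, and linker histones of the H1 family seal the DNA where it enters and leaves. Acetylation of histone tails opens this packing, deacetylases (the Hdac and Sirt families) remove it, bromodomain proteins read it, and Smarc and Chd ATPases slide or evict nucleosomes. In the brain these proteins are known for their part in activity-dependent transcription and in the maintenance of neuronal identity.

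Every array carried the RNA of both arms. The collagen arm was made up of male DBA/1 mice aged 8 weeks that received an intradermal injection of 100 µl of type II collagen mixed with 100 µl of Complete Freund's adjuvant. The control arm was made up of male DBA/1 mice of the same age given 200 µl of that adjuvant and no collagen. All mice of both arms were given LPS at day 24, so the controls are adjuvant-treated and LPS-treated animals, and collagen and the smaller adjuvant volume cannot be told apart. DBA/1 is an inbred strain in which this collagen provokes joint inflammation. The labels do not say how many mice stand behind an RNA sample.

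The 10 arrays form 5 dye-swap pairs. Pairs 1 and 4 share a replicate number in the titles, as do pairs 2 and 5, so the pairs were averaged into 3 replicates, with pair 3 alone as replicate 3. The design text speaks of 3 biological replicates, but nothing ties a title number to separate animals. The p-values therefore reflect the spread between these samples, part or all of which may be technical. All values are log2 ratios of collagen over control. Their direction is likely rather than settled, because channel A was taken as Cy3 from the order of the labels, and every sign would turn if it were Cy5. Between 45.2% and 85.9% of the listed spots were measured in both channels of an array. The arrays' number, 10, limits the precision.

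The linker histones were the class with the fewest measurements. The probes of H1f1, H1f4 and H1f6 gave a ratio on 2 of the 10 arrays each, and those of H1f5 and H1f7 on 3. No probe of this class reached 3 replicates, so no collagen ratio was tested. H1f1, H1f4 and H1f5 are replication-dependent genes, transcribed mainly while a cell copies its DNA. H1f6 and H1f7 encode testis forms of H1. The 130 bases before the transcription start of each are shown, because replication-dependent H1 genes are known by sequence elements in this region. Capitals mark matches to AAACACA (the H1 box), CCAAT (also as ATTGG on the other strand) and TATAAA. The sequences run from 5′ to 3′ on the gene's strand, from RefSeq on GRCm38.p6.
H1f1, chr13:23763538-23763667, plus strand: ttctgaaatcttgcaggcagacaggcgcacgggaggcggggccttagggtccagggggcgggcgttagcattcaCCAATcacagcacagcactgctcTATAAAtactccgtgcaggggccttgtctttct
H1f4, chr13:23622559-23622688, minus strand: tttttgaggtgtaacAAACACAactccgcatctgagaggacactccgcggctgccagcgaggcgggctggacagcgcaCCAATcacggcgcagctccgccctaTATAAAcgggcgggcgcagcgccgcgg
H1f5, chr13:21780626-21780755, minus strand: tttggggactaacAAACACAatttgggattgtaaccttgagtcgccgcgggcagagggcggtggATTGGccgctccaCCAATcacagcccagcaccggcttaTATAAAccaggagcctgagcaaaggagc
H1f6, chr13:23695681-23695810, plus strand: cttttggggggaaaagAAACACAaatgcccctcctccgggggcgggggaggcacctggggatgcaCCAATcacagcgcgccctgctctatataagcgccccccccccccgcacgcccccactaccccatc
H1f7, chr15:98257308-98257437, minus strand: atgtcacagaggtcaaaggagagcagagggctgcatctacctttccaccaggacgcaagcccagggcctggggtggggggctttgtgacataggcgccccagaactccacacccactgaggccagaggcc

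The H1 box began 115, 117 and 114 bases before the start in H1f4, H1f5 and H1f6, and H1f1 held no match to it. TATAAA began 33 bases before the start in H1f1, 27 in H1f4 and 28 in H1f5. H1f7, the one of these 5 genes on chromosome 15, held none of the 3 motifs in this stretch. Over 32851 promoter windows of 300 bases in the RefSeq table, either strand, 7.18% held AAACACA, 37.4% held CCAAT and 13.6% held TATAAA. A match to such short motifs is a description and not a shown binding site.

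The linker histone probes kept a signal mainly in channel A. Over their 50 spots, channel A had a kept intensity on 94% and channel B on 26%. By arm, a kept intensity was present for 54% in collagen and 66% in control, and these arm shares would change places if channel A were Cy5. They rest on 5 probes, and the difference between arms was not tested. Over all listed probes the channel shares were 97.9% and 65.6%, and the arm shares 81.1% in collagen and 82.5% in control. The median brightness of the linker histone probes lay at percentile 15.8 of the array's spots, against 42.9 over all listed probes. Brightness is the rank of a spot's mean log2 intensity among the measured spots of its array, and it depends on the probe as well as on the transcript, so it does not order genes by expression.

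Genes known mainly from germ cells, H1f6 and H1f7 among them, were rarely measured. This group of 6, picked after the values were seen, held H1f6, H1f7, Hmgb4, Taf7l, the methyltransferase cofactor gene Dnmt3l and Mbd3l1. They were measured on 1 to 5 arrays and had a median brightness between percentiles 11.8 and 34.1. None could be tested, where 45.4% of all listed probes were. Some members outside this group were measured as rarely, such as Ing5 and Hdac9 on 3 arrays and Cbx8 on 4. Markers of dividing cells, listed because replication-dependent histone genes are known from such cells, had a median brightness at percentile 18.3. They were not all dim: Mcm7 lay at percentile 70.0, and Mcm6, measured on 1 array, at 90.6. Only Mcm7 of 8 such probes could be tested (log2 ratio -0.01, SE 0.09), and their median was 3.5 arrays. Of the 34 member probes not tested, 32 were seen in channel A on at least 9 arrays, and 24 were seen in channel B on 5 or fewer.

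**Figure D1:**
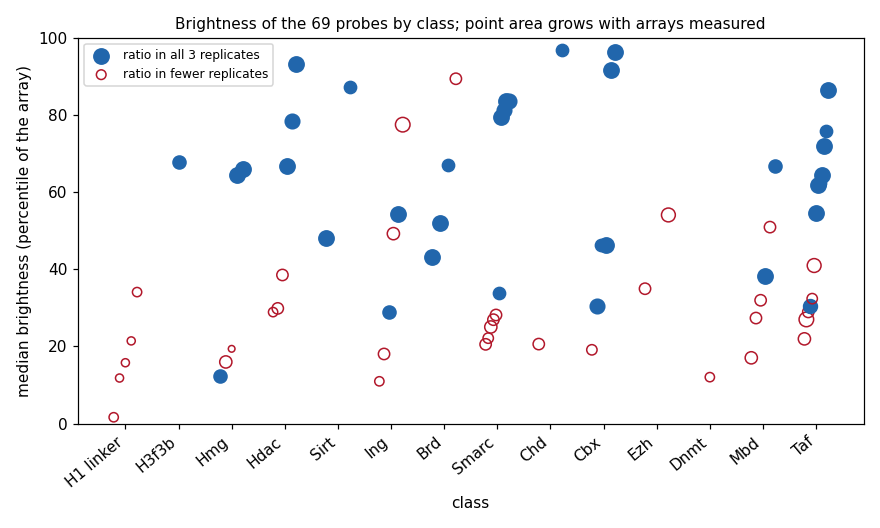
Median brightness of each of the 69 member probes, as a percentile of its arrays (y axis, 0 to 100), by class (x axis). Filled points had a ratio in all 3 replicates, open points in fewer, and the point area grows with the number of arrays measured. All 5 linker histone points are open and lie below the 35th percentile, whereas 25 of the 35 filled points lie above 50.

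The CpG content of the promoters, high in genes active in many cell types, was read beside detection. A promoter window was read for 55 of the 64 genes, and where a gene had several windows the one with most CpG sites was taken. Windows on chromosome 18, which holds Brd8, Mbd1, Mbd2 and Taf7, were left out for members and kept for all genes. The median was 24 CpG sites in 300 bases for members and 8 for all 27025 genes of the table, which is not limited to genes on the array. The 30 tested member genes had a median of 28, and the 25 that were not tested a median of 20. Among the 6 member genes with 7 or fewer CpG sites none was tested, and among the 49 with more, 30 were. The same shares over all genes on the array were not computed. These bounds were chosen after the values were seen, and no test was made.

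No member passed the test between collagen and control cortex. limma called 0 of the 35 tested member probes at an adjusted p under 0.05, where 0% of all 4125 tested probes were called, and the lowest adjusted p of any probe was 0.643. At an unadjusted p under 0.05 there was 1 member, Taf11, against 6.67% of all tested probes, a share near that background. The members' median log2 ratio was -0.02 (SD 0.07 between the 3 replicate medians), and that of all tested probes -0.02. Of the members, 15 lay above 0 and 20 below, so 42.9% were above, against 45.5% of all tested probes. In size, 88.6% of members and 78.9% of all tested probes lay under 0.2. In tissue RNA, fewer cells of a type and less RNA per cell cannot be told apart.

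The 95% confidence intervals bound what these arrays could show. They reached from 0.22 to 0.69 to either side of a member's ratio, with a median of 0.26, and 34 of 35 included 0. These intervals are for a single probe, and the adjusted threshold asks for more: Taf11, whose interval left out 0, did not pass it. The sign was the same in all 3 replicates for 2 higher members, against 14.4% of all tested probes, and for 8 lower members, against 21.3%, and for both directions the background was 35.6%. The lower members' count lies near its background and the higher members' count below it. The median SD between replicates was 0.18 for members and 0.17 for all tested probes.

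**Figure D2:**
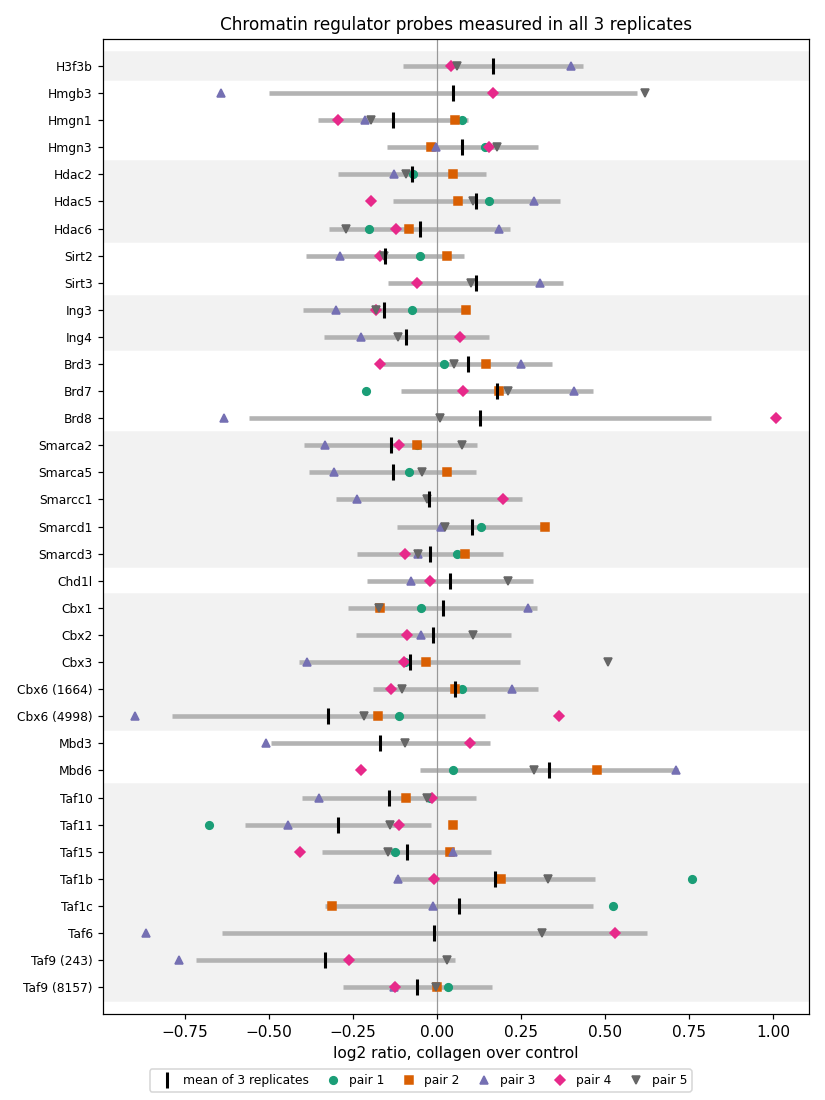
Log2 ratio of collagen over control (x axis) for the 35 tested member probes (rows, ordered by class, probe numbers given for genes with more than 1 tested probe). Coloured points are the 5 dye-swap pairs, black ticks the mean of the 3 replicates and grey bars limma's 95% confidence interval. The points of most rows lie on both sides of 0, and pair 3 is the outermost point in 22 of the 35 rows.

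Among histones and nucleosome-binding proteins, H3f3b, which encodes the replication-independent variant H3.3, was measured in pairs 3, 4 and 5 at 0.40, 0.04 and 0.06. All 3 values were above 0, and pair 3 stood apart from the other two. Its mean was 0.17 (SE 0.11, n = 3 replicates, limma adjusted p = 0.657), and 0.07 with print-tip loess. Hmgn1, whose protein loosens chromatin by binding nucleosomes, had 0.08, 0.05, -0.21, -0.29 and -0.20 in pairs 1 to 5. Its first 2 pairs lay above 0 and the other three below, with a mean of -0.13 (SE 0.09, adjusted p = 0.657). Hmgn3, of the same family, had 0.14, -0.02, -0.00, 0.15 and 0.18 in the 5 pairs, a mean of 0.08 (SE 0.09).

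Core histone genes that carry newer symbols fall outside the members' pattern and were added after the annotation was seen. They had 8 probes, of which 4 were tested. H2az1, encoding the variant H2A.Z, had -0.07 (SE 0.09), and H2bc4 had -0.12 (SE 0.11). H4c1 had -0.06 (SE 0.12) and H2ap 0.05 (SE 0.13). None passed limma's test.

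The histone deacetylases had small ratios. Hdac2, a class I enzyme abundant in neurons and known for restraining synaptic gene expression, read -0.07, 0.05, -0.13 and -0.09 in pairs 1, 2, 3 and 5. One pair lay above 0 and the mean was -0.07, with a 95% interval from -0.29 to 0.15 (limma adjusted p = 0.768). Hdac5, a class IIa enzyme that shuttles out of the nucleus with neuronal activity, was the brightest of its class. It read 0.16, 0.06, 0.29, -0.20 and 0.11 in pairs 1 to 5, 8 of 10 arrays were above 0, and its mean was 0.12 with an interval from -0.13 to 0.37 (adjusted p = 0.685). With print-tip loess its mean was 0.02. Hdac6, the tubulin deacetylase of the cytoplasm, outside the rule for named probes and given to complete the class, had -0.05 (SE 0.11). Hdac9, a class IIa gene, gave a ratio on 3 arrays only, at 0.31, -0.67 and -0.20, and was not tested.

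The sirtuins are deacetylases that need NAD+. Sirt2, mainly cytoplasmic and known from myelinating glia, read -0.05, 0.03, -0.29, -0.17 and -0.16 in pairs 1 to 5. Only pair 2 lay above 0. The mean was -0.15 (SE 0.10, adjusted p = 0.644), and print-tip loess turned its sign to 0.03. Sirt3, the mitochondrial sirtuin, read 0.31, -0.06 and 0.10 in pairs 3, 4 and 5, a mean of 0.12 (SE 0.11).

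The Ing proteins read methylated histone H3 and the Brd proteins acetylated histones. Ing3, a subunit of an acetyltransferase complex, read -0.07, 0.09, -0.30, -0.18 and -0.18 in pairs 1 to 5. The last 3 pairs lay below 0, the mean was -0.16 (SE 0.10, adjusted p = 0.643), and the print-tip value was -0.05. Brd7, a subunit of a Smarc remodeller, read -0.21, 0.19, 0.41, 0.08 and 0.21 in pairs 1 to 5. Pair 1 alone lay below 0, the mean was 0.18 (SE 0.12, adjusted p = 0.657), and the print-tip value was 0.09. Brd3, a member of the BET family, had 0.09 (SE 0.10). Brd2, also of that family, was the brightest of the Brd probes, at percentile 89.4, yet gave a ratio on 5 arrays only, from -0.32 to 0.48. The 2 probes of Ing1 lay at percentiles 18.1 and 49.2 and neither was tested.

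The Smarc and Chd genes encode ATPases of nucleosome remodellers and their partners. Smarca2, the ATPase BRM, read -0.06, -0.06, -0.33, -0.11 and 0.07 in pairs 1 to 5. Pair 3 was the lowest and pair 5 alone lay above 0. The mean was -0.14 (SE 0.11, adjusted p = 0.670), and print-tip loess left it at -0.14. Smarca5, the ISWI ATPase, read -0.08, 0.03, -0.30 and -0.04 in pairs 1, 2, 3 and 5, a mean of -0.13 (SE 0.10). Smarcd3, a BAF subunit of neurons and heart, varied least, with 0.06, 0.08, -0.06, -0.09 and -0.06 in pairs 1 to 5. Its mean was -0.02, with an interval from -0.24 to 0.20. Neither probe of Smarcd2 nor of Smarce1 could be tested. Chd1l, a remodeller recruited to DNA damage, was the brightest member at percentile 96.9 and read -0.08, -0.02 and 0.21 in pairs 3, 4 and 5.

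Polycomb proteins hold genes silent through methylated and ubiquitinated histones, and Cbx6 encodes one of their chromodomain subunits. It had 2 bright probes, and these did not read alike. Probe 4998 read -0.11, -0.17, -0.90, 0.36 and -0.22 in pairs 1 to 5, and probe 1664 read 0.07, 0.05, 0.22, -0.14 and -0.10. In pairs 1 to 4 the signs of the probes were opposite, and both were below 0 only in pair 5. The means were -0.32 (SE 0.19, adjusted p = 0.643) and 0.06 (SE 0.10, adjusted p = 0.851). The difference between probes was not tested. Probe 4998 was at -0.40 with print-tip loess (adjusted p = 0.833), at -0.55 without replicate 1, at -0.04 without replicate 3 and at 0.07 with pairs 4 and 5 only. Cbx2, of the same class, read -0.05, -0.09 and 0.11 in pairs 3, 4 and 5.

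The histone H3 methyltransferases of Polycomb were not tested. Ezh2, known from dividing progenitors, gave ratios on 5 arrays from -0.12 to 1.00. Ezh1, known from postmitotic cells, was measured on 8 arrays. With collagen on Cy5 it read -1.40, -3.44, -1.35 and -2.13 in pairs 1, 2, 4 and 5. With collagen on Cy3 it read 3.88, 3.11, 2.75 and 2.48. Its sign followed the dye on all 8 arrays, and the pair means were 1.24, -0.17, 0.70 and 0.18.

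Mbd proteins bind methylated DNA or sit in the complexes that do. Mbd6 had the highest ratio of the 35 tested probes with channel A taken as Cy3. Its pairs read 0.05, 0.48, 0.71, -0.23 and 0.29, so 4 of 5 pairs lay above 0. The mean was 0.33 (SE 0.16, adjusted p = 0.643), with an interval from -0.05 to 0.72. It was 0.16 with print-tip loess, 0.15 without replicate 3 and 0.55 without replicate 1. Its brightness was at percentile 38.1. Mbd3, a subunit of the NuRD corepressor, read -0.51, 0.10 and -0.09 in pairs 3, 4 and 5, a mean of -0.17 (SE 0.13). Mbd1, studied in adult neural stem cells, was at percentile 17.1 and was not tested. Dnmt3l, the sole probe of its class, gave ratios on 3 arrays, of 0.55, -0.32 and 0.51.

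The Taf genes encode subunits of TFIID, which places RNA polymerase II at promoters, or of the related factor for ribosomal RNA genes. Of 8 tested probes, 6 were lower in collagen and 2 higher, and the class median was -0.07. Both probes of Taf9 were among the lower ones. Of all 4125 tested probes, 2250 were lower. The class median was -0.03, -0.02 and -0.24 in replicates 1, 2 and 3, and that of all tested probes in replicate 3 was -0.07. With print-tip loess 5 were lower and 3 higher, with a class median of -0.04. Taf11, a histone-fold subunit of TFIID, read -0.68, 0.05, -0.44, -0.11 and -0.14 in pairs 1 to 5. Pair 2 alone lay above 0, and 7 of 10 arrays lay below. The mean was -0.29 (SE 0.11, n = 3 replicates), with an unadjusted limma p of 0.0398 and an adjusted p of 0.643. It was -0.15 with print-tip loess, and in the authors' deposited table, whose log base is unstated, it was -0.00. The unadjusted p was 0.132 with print-tip loess, 0.986 in the authors' deposited table, 0.0533 with median centring and 0.086 with reading 2 alone. It was 0.169 without replicate 1, 0.131 without replicate 3, 0.075 without pair 5, 0.0516 with pairs 1 to 3 only and 0.299 with pairs 4 and 5 only. In the remaining settings this p stayed under 0.05: 0.0428 with normexp, 0.0433 with scaling between arrays and 0.0307 for probes on all 10 arrays. With the 5 pairs as separate values it was 0.0401, with a replicate block 0.022 and with a dye term beside the block 0.0363. Without replicate 2 it was 0.0305, without pair 4 0.0268 and with all spots 0.0394.

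Taf9, also a histone-fold subunit, had 2 probes of similar brightness, at percentiles 62.2 and 61.8. Probe 243, in the first grid row, read -0.77, -0.26 and 0.03 in pairs 3, 4 and 5. Probe 8157, in grid row 10, read -0.13, -0.12 and -0.00 in the same pairs. The means were -0.33 (SE 0.16, adjusted p = 0.643) and -0.06 (SE 0.09, adjusted p = 0.821). With print-tip loess, which fits each printed grid by itself, probe 243 was at -0.06 and probe 8157 at -0.15. Taf10, the brightest Taf probe, read -0.02, -0.09, -0.35, -0.01 and -0.03 in pairs 1 to 5. All 5 pairs lay below 0 and pair 3 was the lowest. The mean was -0.14 (SE 0.11, adjusted p = 0.666), and print-tip loess turned it to 0.02.

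The remaining 8 tested members lay between -0.09 and 0.11. They were Smarcd1 at 0.11, Taf1c at 0.07, Hmgb3 at 0.05, Cbx1 at 0.02, Smarcc1 at -0.02, Cbx3 at -0.08, Taf15 at -0.09 and Ing4 at -0.09, and none passed limma's test. The remaining 14 probes without a test were those of Cbx8, Chd1, Hdac7, Hdac8, Hmga2, Ing2, Ing5, Mbd2, Mbd4, Smarcad1, Taf1a, Taf7, Taf8 and Taf13, each measured on 3 to 9 arrays. Ing2, the brightest Ing probe at percentile 77.5, was missing from pair 3 and therefore from replicate 3. Taf8, a TFIID subunit named after its values were seen, read 2.16, 0.47 and 0.29 with collagen on Cy5 in pairs 1, 4 and 5, and 0.33 and 0.56 with collagen on Cy3 in pairs 1 and 3. All 5 arrays lay above 0, and pair 1 alone was complete.

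Place on the array moved with these ratios. The median of all tested probes was -0.15 in grid row 1 and 0.08 in grid row 8. Of the members in grid rows 1 to 4, 11 of 15 were lower, and of those in rows 5 to 12, 9 of 20. Print-tip loess changed the sign of 9 of the 35 members and left their median at -0.02, and limma called 0 of them on these values.

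**Figure D3:**
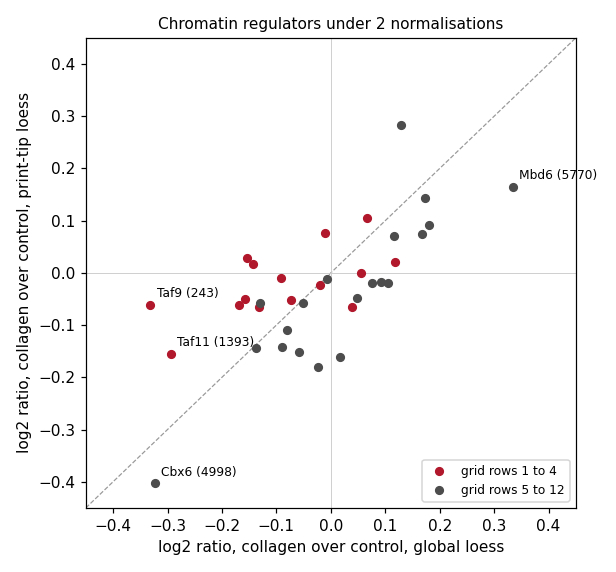
Log2 ratio of collagen over control for the 35 tested member probes with global loess (x axis) and with print-tip loess (y axis), the dashed line marking equal values. Red points are members printed in grid rows 1 to 4 and grey points those in rows 5 to 12. Taf9 probe 243 moves to -0.06, Taf11 to -0.15 and Mbd6 to 0.16.

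Pair 3 weighed most on the members. Its value lay furthest from 0 in 22 of 35 members, and this was so for 48.9% of all tested probes. The SD across members was 0.38 in pair 3, and between 0.16 and 0.27 in the other 4 pairs. Over all tested probes it was 0.35 in pair 3 and between 0.19 and 0.27 in the others. In pair 3, 24 of 35 members were lower, against 8 of 24 measured in pair 2. The members' medians were -0.13 in pair 3 and 0.04 in pair 2, and those of all tested probes -0.07 and 0.02. The share of all tested probes lower in each pair was not counted. Without replicate 3, 47 members could be tested in place of 35, and their median was 0.01, with 55.3% higher. The median of all probes tested there was 0.002. The part of the added members in this change was not tested. Some single members shrank without replicate 3: H3f3b was at 0.05, Brd7 at 0.07, Hdac5 at 0.03 and Smarca2 at -0.04. Others grew in size. Hmgb3 had 0.17 and 0.62 in replicates 1 and 2, against a mean of 0.05 over all 3. Taf1b had 0.38 and 0.26 against 0.17, and Hdac6 -0.16 and -0.18 against -0.05. The members going each way were not counted. Across the 35 members, replicates 1 and 2 correlated at 0.09, 1 and 3 at -0.28, and 2 and 3 at 0.04. The members share their arrays and normalisation, and these correlations are a description. On the 2 arrays of a pair the ratio had the same sign for 30.3% of 201 member measurements and for 36.2% over all listed probes.

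Some members had a dye effect far larger than their collagen ratio. Cy5 over Cy3, fitted in the same way, passed limma's adjusted threshold for 3 members, against 2.13% of all tested probes, namely Brd8, Taf6 and Taf1b, which are named because of this outcome. At an unadjusted p under 0.05 there were 11 members, against 20.1% of all tested probes. Brd8, a bromodomain subunit of an acetyltransferase complex, read -2.78, -0.89 and -2.59 with collagen on Cy5 in pairs 3, 4 and 5, and 1.51, 2.91 and 2.60 with collagen on Cy3. Taf6, a TFIID subunit, read -2.94, -1.42 and -1.82 with collagen on Cy5 and 1.21, 2.49 and 2.45 with collagen on Cy3. The sign followed the dye on every one of these arrays. Collagen over control, the mean of both orientations, was 0.13 for Brd8 (SE 0.28) and -0.01 for Taf6 (SE 0.26), with the widest intervals of the members tested.

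**Figure D4:**
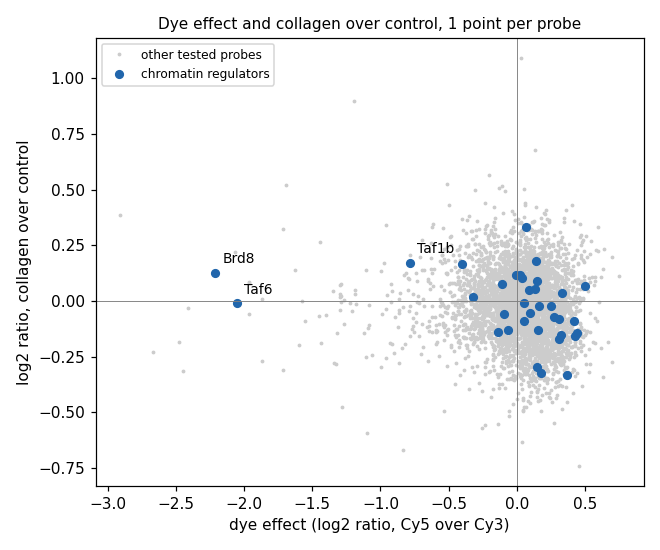
Dye effect (x axis, log2 ratio of Cy5 over Cy3) and log2 ratio of collagen over control (y axis), 1 point per tested probe. Blue points are the 35 members and grey points the other tested probes. Brd8 and Taf6 lie near -2.21 and -2.05 on the x axis and near 0.13 and -0.01 on the y axis.

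Chromatin genes outside the members' families were read from 8 lists of 129 genes in all, with 59 probes, of which 37 were tested. Here 14 were higher and 23 lower, where 45.5% of all tested probes were higher. The median was -0.06, and limma called 0, where the all-probe share at the adjusted threshold was 0%. At an unadjusted p under 0.05 there were 0 higher and 3 lower, against 2.42% and 4.24% of all tested probes. The lower ones were the Polycomb ring-finger gene Pcgf2 at -0.35 (SE 0.14), the remodeller gene Hells at -0.40 (SE 0.14) and the histone chaperone gene Anp32a at -0.38 (SE 0.11). All 3 lay in grid rows 1 to 4.

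Cell type markers were read beside the members. The neuron list had 9 tested probes, 8 of them lower in collagen, with a median of -0.15. Of all 4125 tested probes, 2250 were lower. At an unadjusted p under 0.05 the neuron list had 2 lower, Camk2a and Nefm, against 4.24% of all tested probes. The neuron ratios ranged from Camk2a at -0.38 to Stmn2 at 0.04. Camk2a, Nefm and Gad1 lay in grid row 3, Nefl and Syt1 in row 1 and Gad2 in row 4. The median of all tested probes was -0.11 in row 3, -0.15 in row 1 and -0.08 in row 4. Stmn2, Snap25 and Map2 lay in rows 5, 9 and 12. The brightness of the 9 probes ran from percentile 23.2 for Nefm and 32.1 for Gad2 to 98.0 for Snap25, with a median of 78.9. The microglia list had 3 of 4 lower (median -0.14), the oligodendrocyte list 1 of 3 (median 0.01) and the astrocyte list 1 of 2 (median -0.07). The myelin gene Mal was at 0.35 (SE 0.09) and the pericyte gene Pdgfrb at -0.38 (SE 0.12), both with an unadjusted limma p under 0.05. Pdgfrb lay in grid row 2, where the median of all tested probes was -0.13, and Mal in row 5, where it was -0.04. None of these marker probes passed the adjusted test. The part of grid position in their ratios was not tested, nor that of cell composition in the members' ratios.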

How the data were processed

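Per the file headers, each array came as 3 readings that hold spot intensity in channels A and B, already corrected for background, with local background and a flag. The scanner and image software are unstated. Spots flagged X, Y or Z were dropped. The authors' deposited table gives each spot a score on each array, a log ratio of unstated base and direction with array medians from -0.00553 to 0.00457. It was used as an alternative only.

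From the intensities, log2 ratios of B over A were normalised per reading by global loess (span 0.3), averaged over readings, turned to collagen over control with A taken as Cy3, averaged over both arrays of a pair and then over pairs of one replicate. The design assumed raw intensities with normexp correction. Since the headers state a corrected intensity, normexp (offset 50) became an alternative. Probes with 3 replicates were fitted with an intercept in limma 3.58.1 (R 4.3.3, lmFit and eBayes, two-sided, Benjamini-Hochberg over 4125 probes). The dye effect used the same fit on Cy5 over Cy3. The replicate block used statmod 1.5.0. Only the limma fit was tested on simulated data, drawn as replicate values. The normalisation and averaging steps before it were not.

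Members and lists were chosen with earlier results of these data known. Probes named were, per class, the largest ratio, the smallest SD and the brightest, every gene with 2 probes, members at an unadjusted p under 0.05, and 20 genes known in brain, of which 8 had a member probe. Other probes are named to complete a class, or after their values were seen where the text says so. All 69 members matched the RefSeq gene table by Entrez ID. Correlations did not settle the pairing by replicate number: pairs 1 and 4 correlated at 0.10 and pairs 2 and 5 at 0.18 across 1845 probes. Pairs of different number correlated between -0.01 (pairs 2 and 4) and 0.19 (pairs 3 and 5).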

Additional observations from a re-analysis of the deposited data

Results flagged for a closer look

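In 3 members the dye orientations differed. Brd8 had a Cy5 over Cy3 effect of -2.21 (limma adjusted p = 0.000558, pairs 3, 4 and 5), Taf6 of -2.05 (adjusted p = 0.000186, the same pairs) and Taf1b of -0.79 (adjusted p = 0.0496, 5 pairs). None of them passed the adjusted test for collagen over control. Taf1b encodes a subunit of the factor for ribosomal RNA genes. With collagen on Cy5 it read -0.72, -1.52, -0.53, -0.16 and -0.21 in pairs 1 to 5, and with collagen on Cy3 2.24, 1.91, 0.30, 0.14 and 0.87. Its sign followed the dye on all 10 arrays, and its dye call was lost in most alternatives. The adjusted p of Taf1b was 0.076 with print-tip loess, 0.0567 with median centring, 0.0941 with normexp, 0.0841 with scaling between arrays and 0.0719 with reading 2 alone. It was 0.131 without replicate 2, 0.066 without replicate 3, 0.0633 without pair 5 and 0.2 with pairs 4 and 5 only. Over the 5 pairs of Taf10, pair 3 stood apart at -0.35. Of 27 members examined for an outlying pair, 1 was found, and chance gives about 5%.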

How the results depend on the processing

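In none of 18 alternatives did limma call a member for collagen over control at the adjusted threshold. The members' median kept its sign except without replicate 3 (0.01) and with pairs 4 and 5 only (0.01). These settings tested 47 and 40 members and not the same 35, and their all-probe medians were 0.002 and -0.01. The count of members at an unadjusted p under 0.05 was 2 in the authors' deposited values (5.85% of all probes tested there), between 2 and 4 when 1 replicate was left out (4.86% to 7.24%), 3 without pair 4 (5.8%), 0 without pair 5 (4.62%) and 4 with pairs 4 and 5 only (6.47%), where the reported count is 1 (6.67%). The last 3 settings were chosen after seeing the data. Where the count stayed at 1 the member could differ: it was Cbx6 probe 4998 with print-tip loess and with reading 2 alone, Taf9 probe 243 with median centring and Mbd6 with pairs 1 to 3 only. The count of members with a dye effect was 1 for probes on all 10 arrays, 1 with pairs 1 to 3 only, 1 without pair 4 and 0 without pair 5, against 3 as reported. These 4 settings drop probes measured in pairs 3, 4 and 5 only, among them Brd8 and Taf6. It was 2, without Taf1b, with print-tip loess, median centring, normexp, scaling between arrays and reading 2 alone. Other members passed limma's dye test in some settings. Taf10 did so with the 5 pairs as separate values (adjusted p = 0.0333), beside Taf1b. Mbd1 did so without replicate 2 (0.00704), and Ezh1 without replicate 3 (0.0228) and with pairs 4 and 5 only (3.54e-06), where Taf1b did not pass. Apart from the dropped probes, the cause of these changes was not tested. With the replicate block on the 10 arrays (paired by replicate number, consensus correlation -0.16) the median was -0.01, 1 member had an unadjusted p under 0.05 and 0 were called, as with a dye term beside it. The block was not run for the dye effect. Signs of single members changed in 9 of 35 with print-tip loess, 7 of 35 with median centring and 8 of 24 in the authors' values. Of the 34 member probes not tested, 24 were seen in channel B on 5 or fewer arrays. Taf13, Taf1a, Ing2 and Ezh1 were seen in channel B on 8 to 10 arrays and lacked a ratio in pair 3. The part of channel B signal in the missing tests was not tested.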
